A study of Mus musculus with 6 samples.

Results

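The Ebf family, also called COE or Olf-1/EBF factors, comprises the transcription factor genes Ebf1, Ebf2, Ebf3 and Ebf4 in the mouse. The 4 genes were taken by name from the 57132 genes of the deposited expression table, and the family was selected on measured values, namely earlier results of the same comparison of Dnmt1 KO with control cells. Its levels in the 2 groups are therefore given as a description without a test, and nothing is supported with them.

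RNA was sequenced from tdTomato-positive cells FAC-sorted from the E14.5 mouse cortex, with 3 libraries of the Dnmt1 KO and 3 of the control genotype. Dnmt1 KO embryos carried Sst-Cre, the Cre-dependent tdTomato reporter and loxP-flanked Dnmt1 alleles (Sst-Cre/tdTomato/Dnmt1 loxP2), against Sst-Cre and tdTomato alone in control embryos (Sst-Cre/tdTomato). Both groups thus carried the Cre knock-in at Sst, the gene of the neuropeptide somatostatin, and the reporter at the Rosa26 locus under a CAG promoter, on a C57BL/6J background with sex not distinguished. Cre acts only in cells that have switched on Sst and in their descendants, mostly interneurons born in the medial ganglionic eminence (MGE) that migrate into the cortex, and tdTomato stays on in any cell that has expressed Sst even for a short time. According to the study's methods, cells of several embryos were pooled per genotype, so that libraries of a genotype may share a pool. The p-values below then measure the spread between libraries, which may be technical.

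EBF proteins bind DNA as dimers through an N-terminal domain that holds an unusual zinc-coordinating knuckle, and dimerize through a helix-loop-helix motif. They act in cells that leave the cycle and differentiate. Ebf1 is required for B lymphocytes and for the differentiation of striatal neurons of the lateral ganglionic eminence, Ebf2 and Ebf3 are expressed by Cajal-Retzius cells of the cortical marginal zone, Ebf2 also acts in brown fat, and all were found in olfactory receptor neurons. The zinc finger proteins ZFP423 and ZFP521 bind EBF proteins.

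DNMT1 methylates cytosines in CpG dinucleotides, and the sequence before the start of Ebf1, Ebf3 and Ebf4 is therefore shown with its CpG dinucleotides in capitals. The windows are the 250 bases before the first base of the canonical GENCODE M39 transcript on GRCm39, read 5′ to 3′ on the gene's strand, at chr11:44507888-44508137 (plus strand) for Ebf1, chr7:136916219-136916468 (minus strand) for Ebf3 and chr2:130137609-130137858 (plus strand) for Ebf4. The Ebf4 window lies inside the annotated gene body, since another transcript starts further upstream, and no window shown overlaps an exon of its gene.
Ebf1: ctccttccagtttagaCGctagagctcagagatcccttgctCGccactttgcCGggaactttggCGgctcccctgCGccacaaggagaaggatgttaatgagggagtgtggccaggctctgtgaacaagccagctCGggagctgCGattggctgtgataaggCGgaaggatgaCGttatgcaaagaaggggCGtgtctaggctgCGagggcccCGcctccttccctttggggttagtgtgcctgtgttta
Ebf3: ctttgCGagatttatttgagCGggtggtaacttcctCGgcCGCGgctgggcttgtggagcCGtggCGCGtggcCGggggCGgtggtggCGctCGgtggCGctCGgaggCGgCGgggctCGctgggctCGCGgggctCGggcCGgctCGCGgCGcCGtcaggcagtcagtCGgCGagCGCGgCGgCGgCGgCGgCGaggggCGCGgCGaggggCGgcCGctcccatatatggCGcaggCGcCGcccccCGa
Ebf4: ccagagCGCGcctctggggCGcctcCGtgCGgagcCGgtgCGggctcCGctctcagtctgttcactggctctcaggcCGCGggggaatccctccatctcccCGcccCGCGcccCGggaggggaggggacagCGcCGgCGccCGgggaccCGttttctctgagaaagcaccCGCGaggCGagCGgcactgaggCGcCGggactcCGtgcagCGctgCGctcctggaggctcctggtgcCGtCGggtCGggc
The windows differed in CpG content. Ebf3 held 43 CpG dinucleotides, with a GC content of 77.6% and an observed-to-expected CpG ratio of 1.2, above 99.4% of the windows of 21770 protein-coding genes. Ebf4 held 31 CpG, with a ratio of 0.877. Ebf1 was closer to the median window, with 12 CpG and a ratio of 0.59, against medians of 8 and 0.474 over all windows. The EBF palindrome CCCNNGGG, which reads the same on both strands, had no match in the 3 windows and was present in 12.8% of all windows. No methylation was measured in the libraries described here.

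Recovered reads amounted to 7323813 to 10089981 per Dnmt1 KO library and 7154043 to 9444781 per control library. Values are given as normalized counts, that is read counts divided by the authors' size factor of each library, for which 1 read was worth 0.740 to 1.23 normalized counts. Among the 14126 genes that averaged 10 or more normalized counts, limma called 1638 lower and 1079 higher in Dnmt1 KO cells at an adjusted p under 0.05. Dnmt1 had 2411, 2243 and 2255 normalized counts in Dnmt1 KO libraries 1, 2 and 3, against 3025, 2539 and 2741 in the control libraries (log2 fold change -0.26, SE 0.07, limma adjusted p = 0.0218). All Dnmt1 KO libraries were below all control libraries, but the count covers the whole gene and the deleted part cannot be told apart from the rest. The call was lost in 5 of 17 alternatives, among them leaving out Dnmt1 KO library 2 or 3 or control library 1 (adjusted p of 0.0574 to 0.0926). With scaling by total reads the log2 fold change was -0.0039 (adjusted p = 0.972), and with quantile normalization -0.15 (adjusted p = 0.0901). Sst was present at 3154 to 3453 normalized counts in Dnmt1 KO, against 2852 to 3068 in control libraries.

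Ebf1, Ebf2 and Ebf3 were each 4.2- to 7.5-fold lower in Dnmt1 KO cells, while Ebf4 was close to its control level. All 4 genes passed the filter on low values. Limma called 3 of the 4 lower, beside 11.6% of all tested genes called lower and 7.64% called higher, and the same 3 genes had every Dnmt1 KO library below every control library, beside 18.1% of all tested genes. As the genes were chosen on this comparison, these counts only describe them and are not evidence.

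Ebf1 (ENSMUSG00000057098.15) spans 390.8 kb of the plus strand of chromosome 11 (GRCm39 chr11:44508138-44898918). It had 14.46, 20.3 and 17.0 normalized counts in Dnmt1 KO libraries 1, 2 and 3, against 152, 117 and 119 in control libraries 1, 2 and 3. The groups lay far apart, with the highest Dnmt1 KO library well below the lowest control library. The means were 17.3 ± 2.94 in Dnmt1 KO and 129 ± 19.4 in control cells (n = 3 each, SD). The log2 fold change, taken on log2(normalized count + 1), was -2.84 (SE 0.22). Ebf1 was thus at 13.3% of its control level, and its log2 fold change had rank 86 from the lowest of the 14126 tested genes. These values rest on 14, 21 and 23 reads in Dnmt1 KO libraries and on 123, 124 and 107 reads in control libraries.

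Ebf3 (ENSMUSG00000010476.16) lies on the minus strand of chromosome 7 (chr7:136795402-136916218), and mutations of its human homologue cause a neurodevelopmental syndrome. It had 20.7, 38.7 and 54.8 normalized counts in Dnmt1 KO libraries 1, 2 and 3, against 189, 197 and 163 in control libraries. The groups did not overlap, but the Dnmt1 KO libraries differed among themselves more than those of the other Ebf genes. The means were 38.0 ± 17.1 in Dnmt1 KO and 183 ± 17.9 in control cells, a log2 fold change of -2.33 (SE 0.27). The coefficient of variation was 44.9% in Dnmt1 KO and 9.79% in control libraries. Dnmt1 KO library 3, with the highest Ebf3 level, was also the most deeply sequenced, with 74 Ebf3 reads against 20 and 40 in Dnmt1 KO libraries 1 and 2. The part of depth in this spread was not tested.

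Ebf2 (ENSMUSG00000022053.14) spans 197.7 kb of the plus strand of chromosome 14 (chr14:67470736-67668394) and had the fewest reads of the family. It had 12.4, 10.6 and 8.88 normalized counts in Dnmt1 KO libraries, against 49.4, 35.0 and 51.2 in control libraries. Every Dnmt1 KO library held 11 or 12 reads of this gene, against 37 to 46 in control libraries. The means were 10.6 ± 1.76 in Dnmt1 KO and 45.2 ± 8.88 in control cells, a log2 fold change of -1.98 (SE 0.30). At this level the pseudocount of 1 understates the change, and the ratio of the means left Ebf2 at 23.5% of control.

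Ebf4 (ENSMUSG00000053552.15) is the shortest gene of the family, with 75.3 kb on the plus strand of chromosome 2 (chr2:130137069-130212401). It had 44.4, 68.7 and 59.96 normalized counts in Dnmt1 KO libraries, against 66.7, 71.9 and 69.0 in control libraries. The groups overlapped, since Dnmt1 KO library 2 was above control library 1. The means were 57.7 ± 12.3 in Dnmt1 KO and 69.2 ± 2.62 in control cells, a log2 fold change of -0.28 (SE 0.20).

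**Figure D1:**
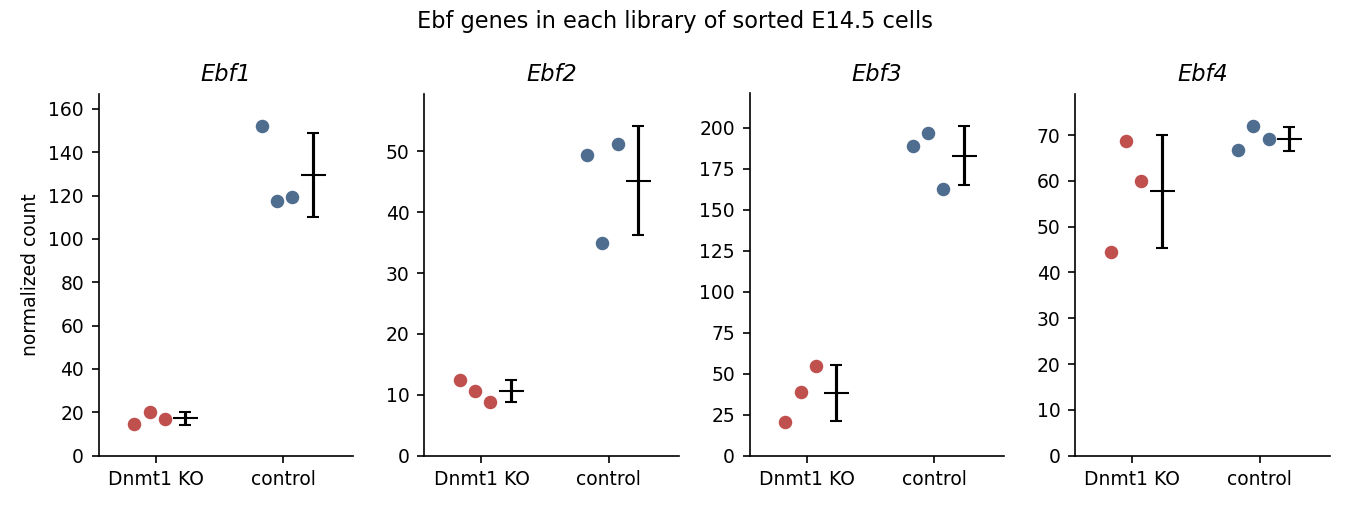
Normalized counts (y axis, from 0, own scale per gene) of Ebf1, Ebf2, Ebf3 and Ebf4 in the 3 Dnmt1 KO and 3 control libraries. Points are libraries, and black lines with bars are means ± SD. For Ebf1, Ebf2 and Ebf3 the Dnmt1 KO libraries sit below all control libraries, and for Ebf4 the groups overlap.

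The 4 genes did not order the libraries alike. Among Dnmt1 KO libraries, library 1 was lowest for Ebf1, Ebf3 and Ebf4 and highest for Ebf2, with deviations from the group mean of -0.23, -0.75, -0.35 and 0.21 on the log2 scale for Ebf1, Ebf3, Ebf4 and Ebf2. Among control libraries, library 2 was lowest for Ebf1 and Ebf2 (-0.13 and -0.34) and highest for Ebf3 and Ebf4 (0.11 and 0.05). Over the alternatives the log2 fold change ranged over -2.96 to -2.59 for Ebf1, -2.15 to -1.67 for Ebf2, -2.64 to -1.96 for Ebf3 and -0.42 to -0.026 for Ebf4. The end nearest 0 for Ebf1 and Ebf4 came from scaling by total reads, which moved the median of all tested genes to 0.275 (0.02 with the authors' size factors).

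Levels of different genes were compared per kb of merged exons. In control cells Ebf4 was highest, with 21.3 ± 0.80 normalized counts per kb, followed by Ebf3 (15.9 ± 1.56), Ebf1 (13.3 ± 1.99) and Ebf2 (6.03 ± 1.19; SD, n = 3). The control ranges of Ebf3 and Ebf1 overlapped (14.2 to 17.1 and 12.02 to 15.6 per kb), but Ebf3 was above Ebf1 within each control library. The ranges of the other neighbours did not overlap. In Dnmt1 KO cells the order of the means was the same, with 17.7 ± 3.78 for Ebf4, 3.31 ± 1.49 for Ebf3, 1.77 ± 0.30 for Ebf1 and between 1.19 and 1.65 for Ebf2. There the range of Ebf3 overlapped that of Ebf1, again with Ebf3 above Ebf1 within each library. The range of Ebf1 overlapped that of Ebf2, and in Dnmt1 KO library 1 Ebf2 (1.65) was above Ebf1 (1.48).

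The sum of the family was 18.6, 28.0 and 26.1 normalized counts per kb in Dnmt1 KO libraries, against 59.1, 55.9 and 54.4 in control libraries. Its make-up shifted to Ebf4, which held 73.1% ± 2.47 of the sum in Dnmt1 KO and 37.7% ± 2.66 in control cells. The share of Ebf1 was 7.37% ± 0.65 in Dnmt1 KO and 23.4% ± 2.57 in control cells, and that of Ebf3 was 13.3% ± 4.43 in Dnmt1 KO and 28.2% ± 2.33 in control cells. For Ebf2 the share was 6.18% ± 2.38 in Dnmt1 KO and 10.7% ± 2.14 in control cells, with overlap, as Dnmt1 KO library 1 reached 8.91% and control library 2 had 8.36%. The ranking rests on the length used. With the length of the longest transcript, Ebf4 held 61.1% in Dnmt1 KO and 26% in control cells, and Ebf3 became the largest share of the control sum with 40.6%.

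**Figure D2:**
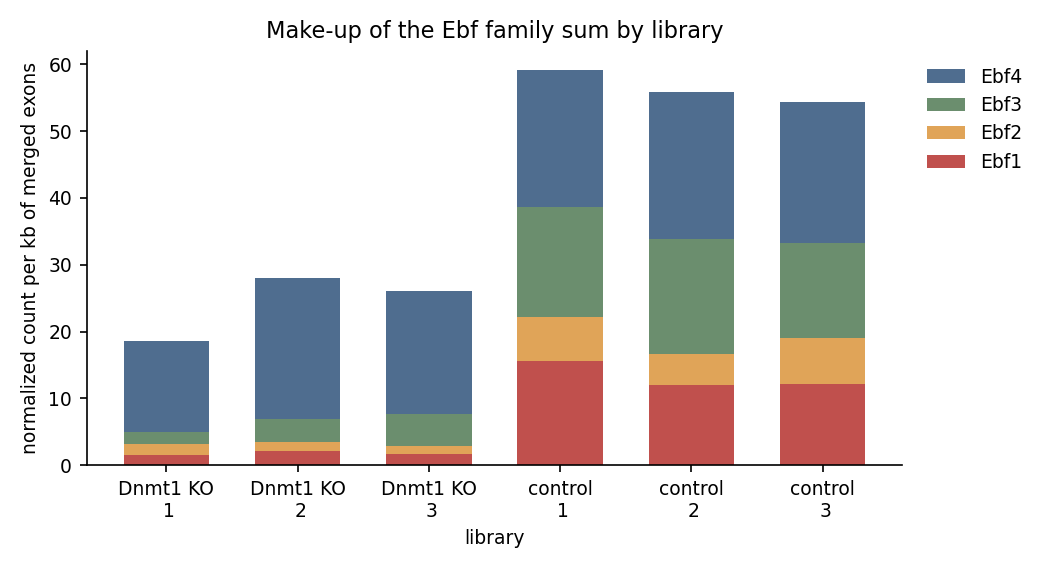
Normalized counts per kb of merged exons (y axis, from 0) of the 4 Ebf genes, stacked for each Dnmt1 KO library (left) and each control library (right). The stacks reach 18.6 to 28.0 in Dnmt1 KO and 54.4 to 59.1 in control libraries, and Ebf4 is the largest segment of every stack.

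The encoded proteins are close relatives. The canonical coding sequences of GENCODE M39 give 591 residues for EBF1, 575 for EBF2, 587 for EBF3 and 599 for EBF4, and the zinc knuckle motif was found once in each of the 4. Identity over the aligned columns was highest between EBF1 and EBF3 (88.6%) and between EBF2 and EBF3 (82.1%), and 76.6% between EBF1 and EBF2. EBF4 was the most distant, with 67.9% to 72.9% identity to the others. The 3 genes that were lower in Dnmt1 KO cells are thus the 3 whose proteins are most alike.

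Known partners and regulators of EBF factors were set beside the family, with proneural and neuronal bHLH genes on the same list. Of 12 listed genes, all tested, 4 were lower and 1 was higher in Dnmt1 KO cells. The median log2 fold change was -0.26, against 0.02 over all tested genes. Of these 12, 1 (Shox2) passed the filter on low values only through its control level, and the median includes it. Of the other 11, which averaged 10 or more in both groups, 3 were lower. Zfp423, the zinc finger partner, had 352, 356 and 299 normalized counts in Dnmt1 KO libraries, against 585, 578 and 499 in control libraries (log2 fold change -0.72, SE 0.10, limma adjusted p = 2.0e-04). Its relative Zfp521 had 344 to 373 normalized counts in Dnmt1 KO, against 412 to 440 in control libraries, without overlap, but did not pass the test (adjusted p = 0.0508) and crossed the threshold in 3 of 17 alternatives.

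Shox2, a homeobox factor, fell in Dnmt1 KO cells, with 0, 0.968 and 2.22 normalized counts in Dnmt1 KO libraries, at or under the level of 3 reads, against 30.9, 53.9 and 42.3 in control libraries (limma adjusted p = 5.9e-05). Lmo1, a LIM-only protein gene, had 31.0 to 46.5 normalized counts in Dnmt1 KO, against 50.1 to 59.3 in control libraries and did not pass the test (adjusted p = 0.189).

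Among the listed proneural and neuronal bHLH genes, Nhlh2 was lower (log2 fold change -0.66, limma adjusted p = 0.0163). It had 63.9 to 83.7 normalized counts in Dnmt1 KO, against 101 to 136 in control libraries. It lost the call in 3 of 17 alternatives, among them leaving out Dnmt1 KO library 2 (adjusted p = 0.0721) or control library 3 (0.0641). Neurog2 was called lower by a narrow margin (log2 fold change -0.29, adjusted p = 0.0461) and lost the call in 12 of 17 alternatives, including each of the 6 that left out 1 library. Neurog1, Neurod1, Neurod4 and Nhlh1 had groups that overlapped and did not pass. The count of lower partners was 2 without Dnmt1 KO library 2 or without control library 3.

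EBF target genes known from other tissues were mostly not expressed at a testable level. Of 23 such genes, 21 were listed and 4 passed the filter. Cd79a, Igll1, Vpreb3, Blk and Rag1 of B lymphocytes and Cidea of brown fat had no read in any of the 6 libraries, and 9 of the 12 B lymphocyte genes averaged under 1 normalized count. Omp, the olfactory marker protein, had 1.03 to 3.87 normalized counts in Dnmt1 KO, against 1.11 to 2.47 in control libraries.

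The 4 tested targets went in both directions. Adcy3, an adenylyl cyclase of olfactory and neuronal cilia, was lower (log2 fold change -0.59, limma adjusted p = 0.0103), as was Prdm16, a regulator of brown fat that radial glia also express (-0.89, adjusted p = 4.4e-04). Foxo1, a forkhead factor of early B cells with roles in many tissues, was higher (0.58, adjusted p = 0.0309), but the call was lost in 8 of 17 alternatives, each of the 6 that left out 1 library among them. Gnal, the olfactory G protein subunit, had overlapping groups and did not pass in the fit of all 6 libraries (adjusted p = 0.305), though it did without Dnmt1 KO library 1 (adjusted p = 0.0498).

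Genes of the cell types in which Ebf genes are best known were compared next. In sorted bulk samples, fewer cells of a type and less RNA per cell cannot be told apart. Of 21 striatal projection neuron genes 14 were tested, and 8 were lower and 1 higher in Dnmt1 KO cells (median log2 fold change -0.84). Of these 14, 2 passed the filter on low values only through their control level, and of the other 12, which averaged 10 or more in both groups, 6 were lower. Isl1, which marks striatal and cholinergic lineages, had 7.23, 2.90 and 4.44 normalized counts in Dnmt1 KO libraries, against 84.0, 89.9 and 95.8 in control libraries (log2 fold change -4.02, SE 0.33). It is among the 2 genes that passed only through their control level, and had to be lower. Meis2 (-1.17, limma adjusted p = 2.1e-07) and Foxp1 (-0.85, adjusted p = 2.2e-05) were lower, while Sp9, which is shared with interneuron precursors, rose (0.66, adjusted p = 3.3e-05). Bcl11b, abundant in striatal neurons and in other neurons of these libraries, had 2461 to 2599 normalized counts in Dnmt1 KO, against 2311 to 2689 in control libraries, and is named after its values were seen. The list summed to 4831 to 5048 normalized counts in Dnmt1 KO, against 5929 to 6485 in control libraries, of which Bcl11b made the largest part.

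Pallidal and basal forebrain neuron genes were also lower. Of 13 genes 8 passed the filter on low values and were called lower (median log2 fold change -3.14). But 3 of these, Gbx2, Isl1 and Lhx8, passed only through their control level and had to be lower, and the median includes them. The other 5 averaged 10 or more in both groups, with log2 fold changes of -3.61 to -0.83. Nkx2-1, like Lhx8 (-3.45) a transcription factor of the MGE and its pallidal derivatives, was lower (-2.83, limma adjusted p = 6.1e-06). The zinc finger genes Zfhx3 (-3.61, adjusted p = 2.2e-07) and Zic1 (-1.30, adjusted p = 9.4e-07) were lower too. Chat, the enzyme of acetylcholine synthesis and the defining marker of cholinergic neurons, had no read in any library. The list summed to 489.5 to 546.7 normalized counts in Dnmt1 KO, against 1995 to 2328 in control libraries, where Zfhx3 made the largest part (872.2 to 1099).

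The diencephalic list gave a difference of the same kind. Of 15 genes 10 were tested, 7 were lower and the other 3 did not pass (median log2 fold change -1.80). Here 4 of the lower genes, Gbx2, Irx1, Sim1 and Lhx1, passed the filter on low values only through their control level, and the median includes them. Of the 6 genes that averaged 10 or more in both groups, 3 were lower. Tcf7l2, a thalamic transcription factor and Wnt effector, had 34.1, 66.8 and 45.9 normalized counts in Dnmt1 KO libraries, against 1168, 1089 and 1134 in control libraries (log2 fold change -4.55, SE 0.18, limma adjusted p = 4.0e-08). Lhx9 (-1.81, adjusted p = 4.9e-07) and Foxp2 (-1.79, adjusted p = 4.9e-05) were lower, and Gbx2 had 0, 0 and 0.740 normalized counts in Dnmt1 KO libraries, against 43.2, 41.6 and 35.6 in control libraries. Gbx2, Isl1, Foxp2 and Lhx1 each stand on more than 1 list. The sum was 302.8 to 306.7 normalized counts in Dnmt1 KO, against 1842 to 1914 in control libraries, where Tcf7l2 made the largest part.

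Cajal-Retzius genes gave mixed values. Of 11 genes, all tested, 3 were lower and 1 was higher (median log2 fold change -0.41). Trp73, the marker most specific to these cells, had 86.8, 76.5 and 42.9 normalized counts in Dnmt1 KO libraries, against 48.2, 68.1 and 46.8 in control libraries, with overlap (adjusted p = 0.48). Lhx1 (-1.55) was called lower, but it passed the filter on low values only through its control level and had to be lower. Of the other 10 genes, which averaged 10 or more in both groups, 2 were lower. Tbr1 was lower (-0.41, limma adjusted p = 0.00458), and Cxcr4, a chemokine receptor of both Cajal-Retzius cells and migrating interneurons, was higher (0.89, adjusted p = 5.8e-05). The call of Lhx1 was lost in 4 of 17 alternatives, among them leaving out Dnmt1 KO library 2 or 3 or control library 1, and without Dnmt1 KO library 2 the count of lower genes was 1. The sum was 4684 to 4776 normalized counts in Dnmt1 KO, against 4204 to 4730 in control libraries, most of it from Reln, which interneurons also express and which is named after its values were seen.

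Ebf1 is also a factor of mural cells, the contractile cells around vessels. Of 20 mural and meningeal genes 14 were tested, 4 were lower and the other 10 did not pass (median log2 fold change -0.19). Pdgfrb, the receptor that marks pericytes, had 63.0, 83.2 and 55.5 normalized counts in Dnmt1 KO libraries, against 95.1, 88.0 and 72.4 in control libraries, with overlap (adjusted p = 0.241). Of the 7 tested meningeal genes 3 were lower. Col1a1, a collagen chain, had 77.7 to 100.2 normalized counts in Dnmt1 KO, against 238 to 254 in control libraries (log2 fold change -1.47, limma adjusted p = 4.7e-06), and Col1a2 was lower (-0.78, adjusted p = 4.7e-04). The other tested meningeal genes, Col3a1, Foxc1, Lum and Dcn, named after their values were seen, had log2 fold changes of 0.27, 0.17, 0.13 and -0.004 and did not pass. Notch3 and Pdgfra lost their call in 9 and 5 of 17 alternatives, and the count of lower genes was 2 without Dnmt1 KO library 2 or 3 or control library 1 or 2. The list summed to 1021 to 1172 normalized counts in Dnmt1 KO, against 1279 to 1464 in control libraries.

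Of the remaining lists, interneuron identity genes mostly rose. Of 16 genes, 12 were higher and 4 did not pass (median log2 fold change 0.47), among the higher ones Maf (0.75, limma adjusted p = 5.8e-06), Erbb4 and Dlx1. The 4 were Sst (0.14) and, named after their values were seen, Npy (0.02), Sox6 (-0.20) and Dlx6 (-0.42). Sox6 had 4581 to 4716 normalized counts in Dnmt1 KO, against 4826 to 6183 in control libraries, without overlap. Without control library 3, 1 gene of the list was called lower. The list summed to 39920 to 41010 normalized counts in Dnmt1 KO, against 31430 to 33700 in control libraries. Radial glia genes were lower in 7 of 10 and higher in 1 (median -0.57), with Nes, Fabp7, Pax6 and Top2a among the lower ones and sums of 7597 to 7769 in Dnmt1 KO and 10730 to 11000 in control libraries. Excitatory cortical neuron genes were lower in 4 of 10 and higher in 1 (median -0.20), with sums of 2785 to 2815 in Dnmt1 KO and 2972 to 3079 in control libraries. The count of lower excitatory genes was 2 without any 1 of the Dnmt1 KO libraries or without control library 1 or 2. Of 20 endothelial, blood and microglial genes 14 were tested and 1 was lower, the globin gene Hbb-bt (median 0.07), a call lost in 7 of 17 alternatives, among them leaving out Dnmt1 KO library 1 or 3 or any control library. This list summed to 916 to 1013 in Dnmt1 KO and 962.2 to 1004 in control libraries. All these lists were measured in the same libraries as the Ebf genes, and their part in the lower Ebf levels was not tested.

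**Figure D3:**
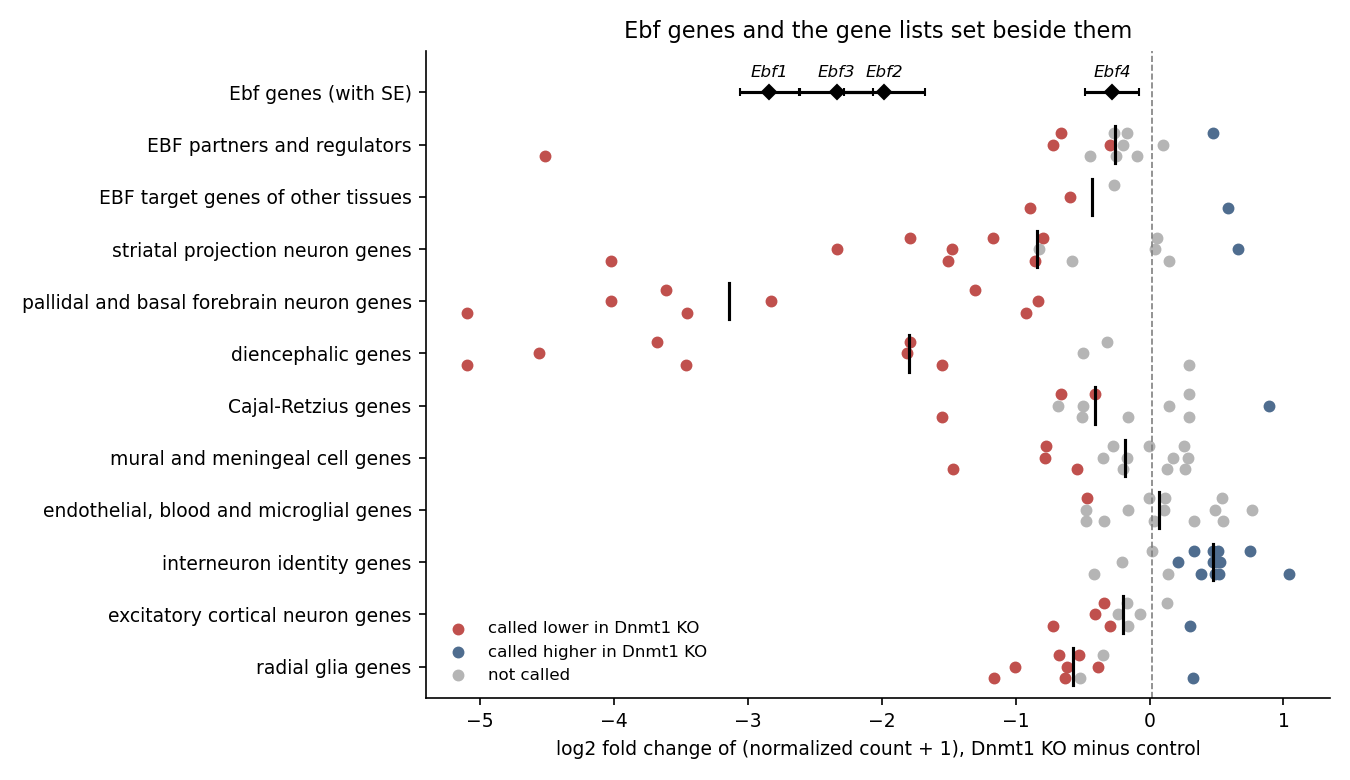
Log2 fold changes of (normalized count + 1), Dnmt1 KO minus control (x axis), of the 4 Ebf genes with SE (top row) and of the tested genes of 11 lists (1 row each). Points are genes coloured by call, short black lines are list medians, and the dashed line is the median of all tested genes (0.02). Ebf1, Ebf2 and Ebf3 lie between -2.84 and -1.98, within the ranges of the partner, striatal, pallidal and diencephalic lists. Ebf4 lies at -0.28.

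**Figure D4:**
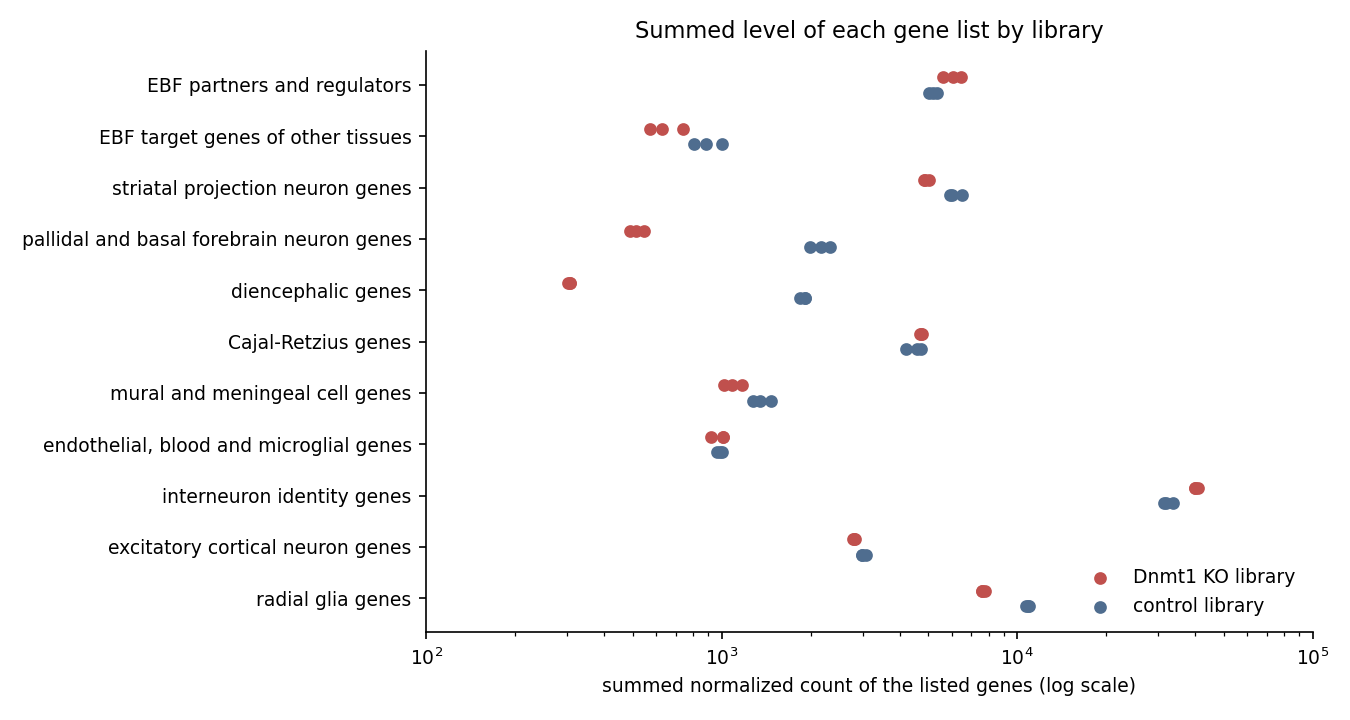
Summed normalized count of the genes of each list (x axis, log scale) in each Dnmt1 KO library (upper points of a row) and control library (lower points). The pallidal sum is 489.5 to 546.7 in Dnmt1 KO and 1995 to 2328 in control libraries, and the diencephalic sum 302.8 to 306.7 in Dnmt1 KO and 1842 to 1914 in control libraries, while the Cajal-Retzius sums overlap. In control libraries Zfhx3 makes the largest part of the pallidal sum and Tcf7l2 that of the diencephalic sum.

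The genes around the Ebf loci are given for their position. Of 163 annotated genes within 500 kb of an Ebf gene, 34 were tested, and 3 were lower and 3 higher in Dnmt1 KO cells. This is 8.82% in each direction, near the 11.6% lower and 7.64% higher of all tested genes, and is no result about the loci. These 6 lay near Ebf2 or Ebf4. Cdca2, a mitotic chromatin protein gene 244.5 kb from Ebf2, was lower (90.1 normalized counts in Dnmt1 KO, against 171 in control cells on average, log2 fold change -0.95, limma adjusted p = 0.00619), and Pnma2 was higher (0.49, adjusted p = 0.016), though not without Dnmt1 KO library 3 or control library 2. The nearest neighbour of Ebf1, Rnf145, had means of 304 in Dnmt1 KO and 289 in control cells and did not pass (adjusted p = 0.677). Clint1, on the far side of Ebf1, lies outside this window at 843.8 kb and had means of 639 in Dnmt1 KO and 640 in control cells. Next to Ebf3, the gene 9430038I01Rik had means of 8.82 in Dnmt1 KO and 18.4 in control cells and did not pass (adjusted p = 0.106), and Mgmt was below the filter.

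Close to Ebf4, the neighbours Idh3b and Cpxm1 did not pass, while the small nucleolar RNA genes Gm24451 and Snord57, 18.8 and 17.1 kb away, were lower (log2 fold changes of -2.11 and -1.40, limma adjusted p = 9.3e-08 and 0.00399). Ddrgk1 and Itpa, 281.4 and 297.1 kb away, were higher (0.38 and 0.37). Both calls depended on single libraries, and Ddrgk1 lost its call in 7 and Itpa in 5 of 17 alternatives. Without Dnmt1 KO library 1, 2 or 3, or control library 2 or 3, the count of higher genes near the Ebf loci was 1. Pnma2, Gm24451, Snord57, Ddrgk1 and Itpa are named after their values were seen. Of 11 annotated genes that overlap an Ebf gene, all on the opposite strand, 8 were listed, and these had no read in any library, so that no listed gene overlapping Ebf1, Ebf2 or Ebf3 held counts.

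The genes whose levels followed those of Ebf1, Ebf2 and Ebf3 most closely were found from the root mean square difference of centred log2(normalized count + 1) values over the 6 libraries, among 9388 tested genes with a mean of at least 50, leaving out genes named after a clone. This measure uses the same libraries and the same difference between groups, and is a description. The closest genes to Ebf1 were Rgs8 (0.312), Nkx2-1 (0.355), Ntn1 (0.393), n-R5s125 (0.394) and Samd5 (0.397). Rgs8, a regulator of G protein signalling, had 82.6, 89.0 and 55.5 normalized counts in Dnmt1 KO libraries, against 452, 364 and 392 in control libraries. Ntn1, the guidance ligand netrin-1, had 14.46, 16.5 and 10.4 normalized counts in Dnmt1 KO libraries, against 157, 172 and 148 in control libraries.

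Ebf3 was most like Samd5 (0.304), Plekha6 (0.35), Foxp2 (0.373), Prox1 (0.382) and Sox8 (0.383). Foxp2 is a forkhead factor of striatal, thalamic and deep-layer cortical neurons. It had 48.5, 62.9 and 91.1 normalized counts in Dnmt1 KO libraries, against 190, 238 and 260 in control libraries. It shared the order of the Dnmt1 KO libraries with Ebf3, as did Samd5, Plekha6 and Sox8. Control library 3 was the highest of the control libraries for Foxp2 and the lowest for Ebf3. Prox1, a homeobox factor, had 34.1, 31.9 and 62.9 normalized counts in Dnmt1 KO libraries, against 175, 138 and 152 in control libraries. Among its own relatives Ebf3 was closest to Ebf1 (0.438) and further from Ebf2 (0.602) and Ebf4 (1.07).

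For Ebf2 the closest genes were H2bc23 (0.154), Syt13 (0.174), Rnu2-10 (0.185), H2bc22 (0.211) and H2ac8 (0.221). Syt13, a synaptotagmin, had 25.8, 19.4 and 17.8 normalized counts in Dnmt1 KO libraries, against 106, 90.8 and 116 in control libraries. The other 4 are histone genes and a U2 small nuclear RNA copy, which like the 5S ribosomal RNA copy n-R5s125 share sequence with near-identical copies, so their counts are uncertain. Ebf2 was closer to Ebf1 (0.507) than to Ebf3, and its distance to Ebf4 was 0.917.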

How the data were processed

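Gene expression was measured in 6 libraries of sorted E14.5 cells, 3 Dnmt1 KO and 3 control, grouped and numbered by the sample titles. The deposited genotype field reads Sst-Cre/tdTomato for all 6 and does not separate the groups. The authors deposited normalized counts, a signal of gene counts divided by 1 size factor per library. The tools named were Salmon 1.10.3, STAR 2.7.11b, Trim Galore 0.6.10 and DESeq2 1.42.1 under R 4.3.3, with GRCm39 as the build, per the submitters' processing notes. Deposited columns of fold changes and p-values, and deposited enrichment tables, hold the authors' own comparisons and were not used. It is not known here whether molecular identifiers were counted, and floors cover counting error only.

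Every value was a whole multiple of 1 read (100% of values, tolerance 0.001), so reads were recovered. A floor of 3 reads was 2.22 to 3.70 normalized counts. Genes with a mean of at least 10 were fitted as log2(normalized count + 1) with limma 3.58.1 (lmFit, eBayes with trend) in R 4.3.3, group as the only term, two-sided, Benjamini-Hochberg adjusted p under 0.05. The fits were tested on simulated data. On recovered reads edgeR 4.0.16 called 1064 genes higher and 1668 lower, and DESeq2 1.42.0 called 841 higher and 1501 lower. Coordinates, exon lengths and coding sequences came from GENCODE M39 on GRCm39, which lacks 0.879% of the listed genes. The gene ID versions of the table are older than those of M39.

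The Ebf genes and the 11 gene lists were chosen with earlier results of these data known. Named were Dnmt1, Sst, the Ebf genes, all partners and regulators, of each other list the first gene and the 4 tested genes with the smallest p, the nearest and overlapping genes of each Ebf locus, and the 5 genes most like each Ebf gene whose groups did not overlap. Some genes that this rule names, and a sequence, are not reported here. Genes outside this rule are marked in the text or stand in a count.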

Additional observations from a re-analysis of the deposited data

How the results depend on the processing

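The 17 alternatives kept the sign of the log2 fold change of Ebf1, Ebf2, Ebf3 and Ebf4 (16 for Ebf2, whose mean is under 50). A pseudocount of 5 gave -2.59 for Ebf1 and -1.67 for Ebf2. Scaling by total reads gave -2.59 for Ebf1 and -0.026 for Ebf4, called 5046 genes higher and 1062 lower, left 2 partners and regulators, 1 Cajal-Retzius gene and 2 mural and meningeal genes lower, and made 2 striatal, 2 Cajal-Retzius, 1 mural and meningeal gene and 17 genes near the Ebf loci higher. It also turned Clint1 to 0.25 (adjusted p = 0.0239). Quantile normalization called 1452 genes higher and 1369 lower, and 2 Cajal-Retzius genes higher. A minimum mean of 50 left 5 striatal and 5 pallidal genes and 3 diencephalic genes lower, since fewer genes were tested, and with no filter 12 diencephalic genes were lower. Excitatory genes called lower were 2 with DESeq2 and with no filter and 1 with scaling by total reads. DESeq2 left 1 gene near the Ebf loci higher.

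Leaving out 1 library at a time gave 531 to 977 genes higher (531 without Dnmt1 KO replicate 3, 569 without Dnmt1 KO replicate 2), 2 to 3 partners and regulators lower, 1 to 4 Cajal-Retzius genes lower, 2 to 4 mural and meningeal genes lower and 0 to 1 higher, and 1 to 3 genes near the Ebf loci higher. Where 1 library of a group was left out, both groups shared 1 estimate of spread.

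Shares of the family sum depended on length. With the longest transcript, Ebf1 held 9.26% in Dnmt1 KO cells, Ebf3 23.1% in Dnmt1 KO and 40.6% in control cells, and Ebf4 61.1% in Dnmt1 KO and 26% in control cells. Without division by length the shares were 14.2% in Dnmt1 KO and 30.2% in control cells for Ebf1, 9.16% in Dnmt1 KO cells for Ebf2, 29.8% in Dnmt1 KO and 42.8% in control cells for Ebf3, and 46.9% in Dnmt1 KO and 16.3% in control cells for Ebf4.

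Replicate numbers are shared by the groups, but same-numbered libraries did not deviate together (correlations of -0.018, 0.064 and -0.031 over 14126 genes). With the replicate block 945 genes were higher and 1583 lower, and 4 of 79 named genes lost their call. Of these 79 genes, DESeq2 lost the call of 7 and total-read scaling that of 9. At 11 to 23 reads, Ebf1 and Ebf2 in Dnmt1 KO cells are limited by counting error.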
